A study of Homo sapiens with 4 samples.

Results

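The 8 genes followed here, PAX2, PAX8, LHX1, SIX2, SALL1, OSR1, WT1 and SOX2, encode transcription factors of kidney development and stemness that are used to place the identity of HEK293, a human embryonic kidney cell line. They were chosen by symbol, through the gene identifiers of the deposited count table, and all 8 were found among its 60708 genes. WT1 here is always the Wilms tumour gene, and 52X WT always a condition. The data are 4 TT-seq libraries, a method that labels new RNA with 4-thiouridine, here for 20 min, and sequences the labeled fragments, introns included. All 4 came from HEK293 cells whose own RPB1, the largest subunit of RNA polymerase II, carries a degron that auxin triggers. The cells were transiently transfected with RPB1 that has either a wild-type C-terminal domain of 52 repeats (52X WT, 2 libraries) or the same domain with threonine 4 of each repeat changed to alanine (52X T4A, 2 libraries). After 48 h auxin was added to both conditions for another 48 h. Transient transfection does not reach every cell, and the share reached is not given in the sources used here. No untransfected or auxin-free library was among the samples used here. The labels do not say whether replicates came from separate cultures, so p-values measure only the spread between these libraries, which may be technical.

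The kidney forms from intermediate mesoderm. OSR1 (odd-skipped), LHX1 (a LIM homeodomain protein) and the paired-box proteins PAX2 and PAX8 act early in that lineage, and PAX2 and PAX8 go on to mark much of the nephric epithelium. SIX2 (a homeodomain protein) and SALL1 (a zinc finger protein) hold the nephron progenitors of the cap mesenchyme in a self-renewing state, and WT1 (a zinc finger protein) acts in those progenitors and later in podocytes, the filtering cells of the glomerulus. SOX2 is a pluripotency and neural progenitor factor. The genes thus divide into progenitor factors, early lineage factors, the PAX pair and a stemness factor.

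In both conditions, new RNA of SIX2, WT1, OSR1, SALL1 and LHX1 was made at levels well above background. PAX2 and PAX8 were far lower. PAX8 was not distinguished from background, and PAX2 lay at 2.75 to 4.23 times the pooled level of genes not expected to be transcribed. SOX2 could not be measured, because its whole span lies inside another gene of its strand. None of the 7 genes tested differed between 52X T4A and 52X WT past the threshold. The sequences shown next are those just upstream of the SIX2 and WT1 starts, the genes of highest level here, and of the PAX2 and PAX8 starts, the genes of lowest level. They let a reader set the proximal promoters of the factors of highest and of lowest level beside each other. Each is 250 bases, 5′ to 3′ on the strand of the gene, from RefSeq on GRCh38.p14, in which 5 of the 8 genes were matched; LHX1, SALL1 and OSR1 were not. Capitals mark a GC box, searched as GGGCGG on either strand.
SIX2 (chr2:45009453-45009702, minus strand): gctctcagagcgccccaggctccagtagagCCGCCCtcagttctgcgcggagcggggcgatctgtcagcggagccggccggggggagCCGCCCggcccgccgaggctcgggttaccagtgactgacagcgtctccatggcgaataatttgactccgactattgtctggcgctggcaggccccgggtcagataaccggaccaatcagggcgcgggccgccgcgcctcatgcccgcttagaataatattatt
WT1 (chr11:32435540-32435789, minus strand): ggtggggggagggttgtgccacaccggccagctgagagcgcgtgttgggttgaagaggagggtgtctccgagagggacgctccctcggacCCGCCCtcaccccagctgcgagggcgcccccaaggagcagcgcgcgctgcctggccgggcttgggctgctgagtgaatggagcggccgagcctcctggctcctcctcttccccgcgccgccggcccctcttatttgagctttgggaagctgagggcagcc
PAX2 (chr10:100735146-100735395, plus strand): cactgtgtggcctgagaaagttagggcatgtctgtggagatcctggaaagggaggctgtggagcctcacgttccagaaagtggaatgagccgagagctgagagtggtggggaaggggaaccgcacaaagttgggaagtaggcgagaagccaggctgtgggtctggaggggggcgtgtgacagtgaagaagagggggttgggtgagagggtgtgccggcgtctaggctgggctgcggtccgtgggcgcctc
PAX8 (chr2:113278922-113279171, minus strand): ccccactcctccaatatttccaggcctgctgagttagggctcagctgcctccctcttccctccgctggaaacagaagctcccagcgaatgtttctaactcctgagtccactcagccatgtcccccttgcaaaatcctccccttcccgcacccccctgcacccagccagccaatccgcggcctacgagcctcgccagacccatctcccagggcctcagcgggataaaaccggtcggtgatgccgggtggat

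The SIX2 window held 2 GC boxes and the WT1 window 1, and the PAX2 and PAX8 windows held 0. A GC box was present in 42.6% of the 35116 RefSeq windows of this length. The windows also differed in CpG dinucleotides, with 26 for SIX2, 19 for WT1, 10 for PAX2 and 11 for PAX8, against a median of 11 over all windows. The G and C content was 65.6% for SIX2, 70.4% for WT1 and 61.6% for both PAX2 and PAX8, against a median of 58.0%. A CCAAT box, searched as CCAAT on either strand, occurred 1 time for SIX2 and 2 times for PAX8, and not in the PAX2 and WT1 windows. It was present in 32.0% of all windows. TATAAA, present on either strand in 10.7% of all windows, was in none of the 4. In the SIX2 window the CCAAT box lay apart from both GC boxes. PAX2 and WT1 have further RefSeq starts downstream, and the counts do not tell which start was used. The window of the other PAX2 start, 10186 bases on, held 0 GC boxes, 15 CpG and 66.0% G and C, and the windows of the other 3 WT1 starts held 0 GC boxes and 13, 18 and 3 CpG. The features of the printed windows therefore do not separate the genes of higher from those of lower level once all starts are read.

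Counts in the table cover the whole span of a gene on its own strand, exons and introns together. The layout of the table sets which of the 8 genes can be read. All 9293 genes with no base free of another gene of the same strand were listed at 0 in all 4 libraries, whereas of 10729 genes inside a gene of the other strand only, 36.3% were. Strand was thus used in counting, and reads over a pair of genes on the same strand were not counted. Levels are therefore given as CPM (counts scaled to the library size with TMM factors) per kb of countable span, the part that no other gene of the same strand covers. As background, 348 olfactory receptor genes served, a family not expected to be transcribed in a kidney line. Their median level was 0 in each library, and the 95th percentile of their levels was 0.0529 and 0.0485 in 52X WT replicates 1 and 2 and 0.0629 and 0.0593 in 52X T4A replicates 1 and 2. Their pooled level, all counts over all their length, was 0.00652, 0.00584, 0.0101 and 0.00694 in the same order, highest in 52X T4A replicate 1. They held 538, 543, 715 and 506 counts in all, so the percentile rests on a few counts per gene. For a long gene with more counts, such as PAX2, it is a coarse limit, and the pooled level is given beside it. In bulk libraries, fewer cells that transcribe a gene and less RNA per cell cannot be told apart.

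SIX2 (ENSG00000170577.8; GRCh38 chr2:45005182-45009452, minus strand, 4271 bp) had the highest level of the measured factors. Its counts were 330 and 424 in 52X WT replicates 1 and 2 and 286 and 403 in 52X T4A replicates 1 and 2. Its levels were 1.97, 2.25, 1.99 and 2.73 CPM per kb in the same order, a mean of 2.24 ± 0.351 (SD, n = 4), above 84.3% of 18606 protein-coding genes. The 52X T4A replicates held both the highest and the second lowest value of SIX2, and the conditions overlapped. The log2 fold change of 52X T4A over 52X WT was 0.16 ± 0.19 (SE), with an adjusted p of 0.706 in edgeR's quasi-likelihood test.

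WT1 (ENSG00000184937.16; chr11:32387775-32435564, minus strand, 47790 bp) had the most counts of the 8 genes and the second level. Its counts were 1699 and 1989 in the 52X WT libraries and 1399 and 1418 in the 52X T4A libraries. Per kb of countable span these were levels of 0.908, 0.944, 0.872 and 0.858 CPM, a mean of 0.896 ± 0.0386 (SD, n = 4). Both 52X T4A values lay below both 52X WT values, by little. The log2 fold change was -0.10 ± 0.09 (SE, adjusted p = 0.632), and its 95% interval, -0.31 to 0.12, lies within a 1.5-fold change in either direction. WT1 was the most precisely measured of the 7 genes tested, with the smallest SE.

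SALL1 (ENSG00000103449.12; chr16:51135975-51151367, minus strand, 15393 bp) had counts of 366, 379, 284 and 351 in 52X WT replicates 1 and 2 and 52X T4A replicates 1 and 2. Its levels were 0.608, 0.559, 0.550 and 0.660 CPM per kb, a mean of 0.594 ± 0.0507 (SD, n = 4). The lowest and the highest value were both 52X T4A, so the conditions overlapped. The log2 fold change was 0.05 ± 0.17 (SE, adjusted p = 0.898, 95% interval -0.33 to 0.44).

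Among the early lineage factors, OSR1 (ENSG00000143867.7; chr2:19351485-19358623, minus strand, 7139 bp) had counts of 150, 176, 160 and 190 in the same order of libraries. Its levels were 0.537 and 0.559 CPM per kb in 52X WT and 0.668 and 0.770 in 52X T4A, a mean of 0.633 ± 0.107 (SD, n = 4). Both 52X T4A values lay above both 52X WT values. OSR1 had the lowest p of the 7 genes tested, with a log2 fold change of 0.39 ± 0.20 (SE). In the edgeR fit across all genes its unadjusted p was 0.0879 and its adjusted p 0.385, which does not pass the threshold. The 95% interval, -0.07 to 0.85, holds both no change and a change over 1.5-fold.

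LHX1 (ENSG00000273706.5; chr17:36936785-36944612, plus strand, 7828 bp) had counts of 142, 152, 106 and 126. Its levels were 0.464, 0.441, 0.403 and 0.466 CPM per kb, a mean of 0.443 ± 0.0289 (SD, n = 4), near the middle of the protein-coding genes, 51.4% of which lay below it. The 52X T4A libraries again held the lowest and the highest value. The log2 fold change was -0.06 ± 0.22 (SE, adjusted p = 0.917, 95% interval -0.56 to 0.45).

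PAX2 (ENSG00000075891.23; chr10:100735396-100829944, plus strand, 94549 bp) is the longest of the measured genes and had only 95, 80, 88 and 96 counts. Its levels were 0.0257 and 0.0192 CPM per kb in 52X WT and 0.0277 and 0.0294 in 52X T4A, a mean of 0.0255 ± 0.0045 (SD, n = 4). Every value lay below the 95th percentile of the olfactory receptor genes, and between 2.75 and 4.23 times above their pooled level. Both 52X T4A values lay above both 52X WT values. With the pooled olfactory level subtracted, the values were 0.0192, 0.0134, 0.0176 and 0.0224 CPM per kb and the conditions overlapped, and the log2 fold change without subtraction was 0.35 ± 0.27 (SE, adjusted p = 0.547).

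PAX8 (ENSG00000125618.18; chr2:113215997-113278921, minus strand, 62925 bp) had 18, 18, 34 and 8 counts. Most low counts in the table were even, 82.1% to 86.2% of counts from 1 to 20 depending on the library, as they would be if both mates of a read pair were counted. Read as pairs, the PAX8 counts were 9, 9, 17 and 4, with exact 95% Poisson intervals of 4.12 to 17.1 for each 52X WT library, 9.90 to 27.2 for 52X T4A replicate 1 and 1.09 to 10.2 for 52X T4A replicate 2, which cover counting error only. The intervals of the 2 52X T4A libraries overlap between 9.90 and 10.2 pairs. The levels were 0.0073, 0.0065, 0.0161 and 0.0037 CPM per kb, between 0.530 and 1.59 times the pooled olfactory level. PAX8 was thus not distinguished from background at this depth. Its log2 fold change of 0.51 ± 0.67 (SE, adjusted p = 0.732) had a 95% interval of -1.02 to 2.05. Without 52X T4A replicate 1 it turned to -0.89, so a single library set its direction.

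SOX2 (ENSG00000181449.4; chr3:181711925-181714436, plus strand, 2512 bp) was listed at 0 in all 4 libraries. SOX2-OT (chr3:180989762-181836880), a long noncoding RNA gene of the same strand, covers every base of it, so the 0 says nothing of SOX2 transcription. SOX2-OT had 1310, 1420, 1173 and 1110 counts, a level of 0.0393 CPM per kb and a log2 fold change of 0.03 ± 0.11 (SE, edgeR adjusted p = 0.909). Its level was not above the olfactory 95th percentile in any library.

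The order of levels was SIX2, WT1, OSR1, SALL1, LHX1, PAX2 and PAX8. SIX2 was 2.50 times WT1 by mean level, and LHX1 was 17.4 times PAX2, the widest step between neighbours in the order. OSR1 and SALL1, with a ratio of 1.07, were the neighbours whose ranges over the 4 libraries overlapped. The 5 factors from SIX2 to LHX1 exceeded the 95th percentile of the olfactory receptor genes in all 4 libraries, and PAX2 and PAX8 did in none. Of all 18606 protein-coding genes ranked, 66.5% exceeded it in all 4 libraries, so 5 of 7 is close to the share of coding genes at large. The mean level of SIX2 was above that of all 348 olfactory receptor genes, and the other 4 of these 5 were above 99.7% of them. In 52X T4A replicate 1, however, the highest olfactory receptor gene had a level of 2.06 CPM per kb against 1.99 for SIX2, and with that highest gene as the limit, 0 of the 7 factors were above it in all 4 libraries, beside 16.1% of coding genes.

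**Figure D1:**
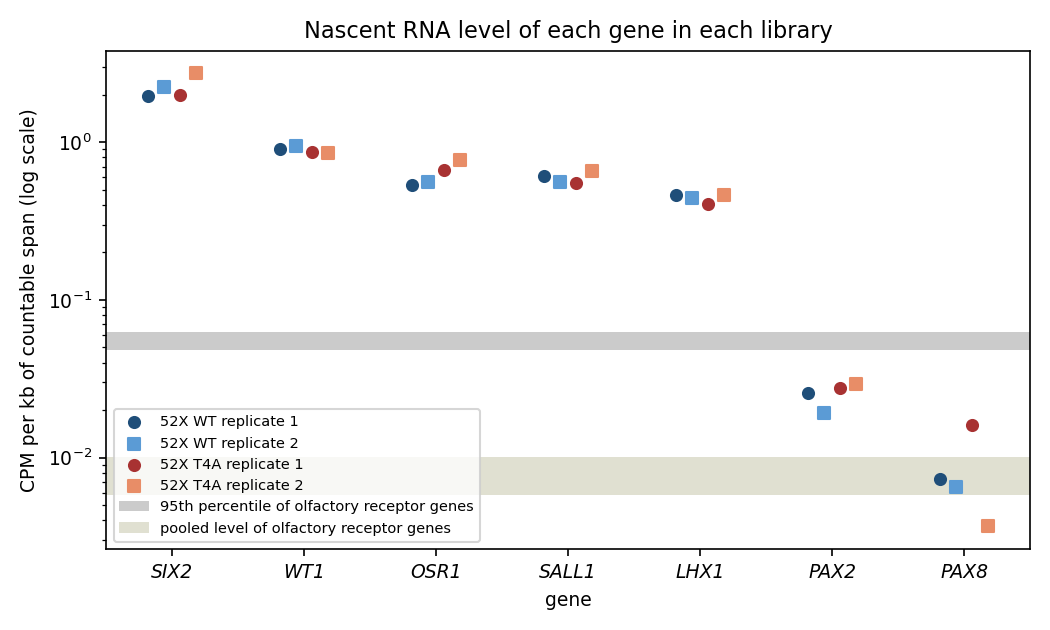
Level of the 7 measurable factors in each library, in CPM per kb of countable span on a log axis, with the range over libraries of the 95th percentile (grey band) and of the pooled level (green band) of 348 olfactory receptor genes. SIX2, WT1, OSR1, SALL1 and LHX1 lie above the grey band in all 4 libraries, PAX2 lies between the bands, and PAX8 lies around the lower band.

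In the plot of levels by library, the spread between libraries of a gene is small beside the gap between the 5 higher genes and the PAX pair. PAX8 in 52X T4A replicate 1, the library with the highest pooled olfactory level, is the point that stands apart from its gene's other values. The part of background in that count was not tested.

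At 4 of the loci, genes of the other strand overlap the factor or start near its start, and strand-aware counting lists them apart. WT1-AS (chr11:32435518-32458769) shares 47 bp with WT1 and runs away from it, with starts 46 bp apart. Its counts were 210, 241, 191 and 178, its mean level was 0.245 CPM per kb, and the ratio of its level to that of WT1 stayed between 0.262 and 0.295 in the 4 libraries. Its log2 fold change was 0.00 ± 0.19 (SE, adjusted p = 0.999). LHX1-DT (chr17:36861674-36936670) starts 115 bp from LHX1 on the other strand, and had 352, 392, 336 and 316 counts and a mean level of 0.123 CPM per kb. Its ratio to LHX1 was 0.259 to 0.331, with the highest in 52X T4A replicate 1, and its log2 fold change was 0.10 ± 0.16 (SE, adjusted p = 0.782). Both partners were thus transcribed above the olfactory 95th percentile in all 4 libraries, at a lower level than the factor beside them.

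At SALL1, the gene ENSG00000285367 starts 597 bp from the SALL1 start on the other strand and shares 598 bp with it. It had 123, 131, 131 and 128 counts, at a level of 0.0119 CPM per kb and a log2 fold change of 0.31 (adjusted p = 0.504). PAX8-AS1 (chr2:113211421-113276581) runs against PAX8 over 60585 bp, with starts 67500 bp apart. Its counts of 50, 52, 36 and 30 exceeded those of PAX8 in each library, by the least in 52X T4A replicate 1, and its level was 1.02 to 3.62 times that of PAX8 in the 4 libraries. Its log2 fold change was -0.34 ± 0.35 (SE, adjusted p = 0.655). Neither ENSG00000285367 nor PAX8-AS1 was above the olfactory 95th percentile in any library. ENSG00000276707 inside LHX1 had 1, 6, 2 and 0 counts and ENSG00000261238 inside SALL1 had 0, 0, 2 and 2, too few to be tested. Of genes on the same strand with at least 40 counts in all, the nearest upstream gene ended at least 155364 bp from each factor.

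**Figure D2:**
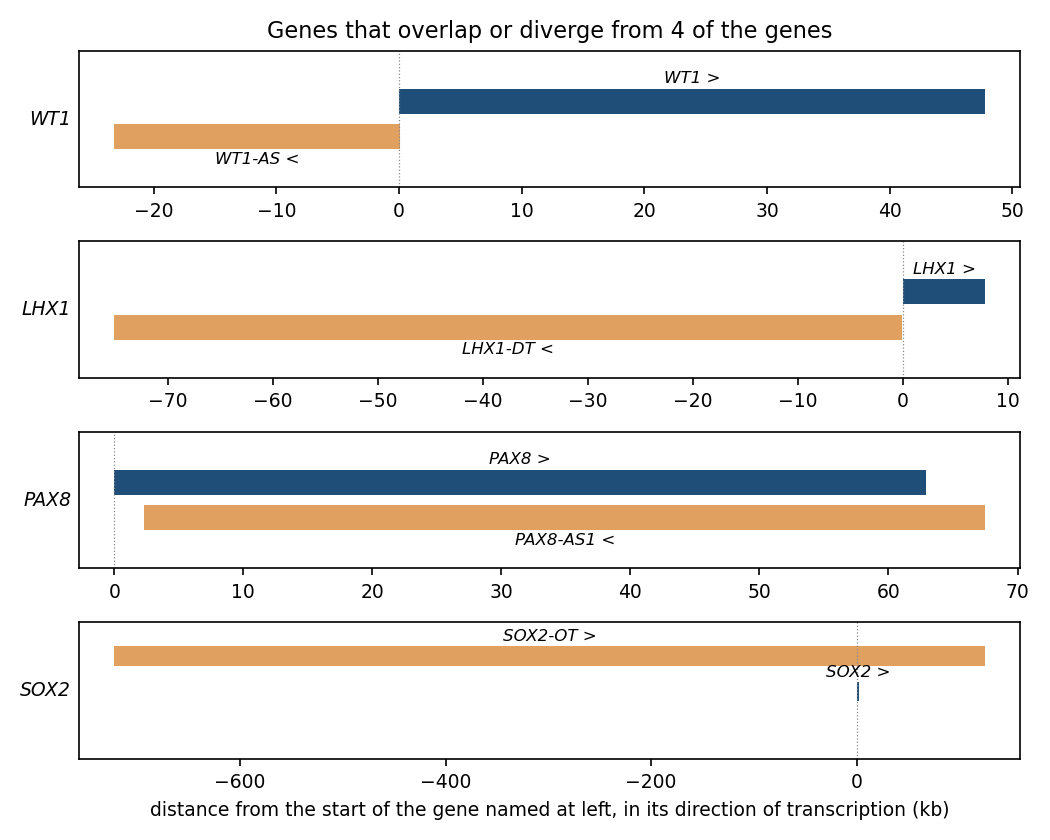
Position of WT1, LHX1, PAX8 and SOX2 (blue) and of the named gene that overlaps or diverges from each (orange), in kb from the start of the factor in its direction of transcription; > marks the same strand and < the other. WT1-AS and LHX1-DT begin within 115 bp of the factor's start, PAX8-AS1 shares 60585 bp with PAX8, and SOX2-OT covers all of SOX2.

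The map of neighbouring genes shows the arrangement at 4 of the loci. A partner of the other strand does not remove the count of WT1, LHX1 and PAX8, and a partner of the same strand removes that of SOX2. The share of reads assigned to the wrong strand was not tested.

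The comparison of 52X T4A with 52X WT asks whether new RNA of these genes, relative to that of other genes, depends on threonine 4 of the RPB1 repeats. Of 23321 genes tested, 1 passed an adjusted p of 0.05 and a fold change of 1.5, which is 0.00429%, and 0 of the 7 factors tested did. At an unadjusted p under 0.05, 15.5% of all genes and 0 of the 7 factors passed in edgeR. DESeq2 gave an adjusted p for 3 of the 7, SIX2, SALL1 and WT1, and called 0 of these, and it gave none for the other 4. The count of genes called over the whole table rested on single libraries: it was 2500 without 52X T4A replicate 2, 195 without 52X T4A replicate 1, 3 without 52X WT replicate 1 and 0 without 52X WT replicate 2, while the count for the 7 factors was 0 in each of these fits. Both libraries of one condition lay above both of the other for WT1, OSR1 and PAX2, 3 of the 7, beside 49.5% of all genes tested. The median log2 fold change of the 7 was 0.16, with 5 above 0, and that of all genes was -0.001, with 49.9% above 0.

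The size of change that the data leave possible differed between the genes. Counts were scaled to library size with TMM factors, so each change is relative to the other genes. A general rise or fall of new RNA would not show in it. For WT1, SALL1 and LHX1 the 95% interval lay inside a fold change of 1.5 in either direction. For SIX2 the upper end was 1.52-fold, for OSR1 1.81-fold, for PAX2 1.95-fold and for PAX8 4.13-fold. A p that missed the threshold thus does not show that these 4 were alike in the 2 conditions.

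**Figure D3:**
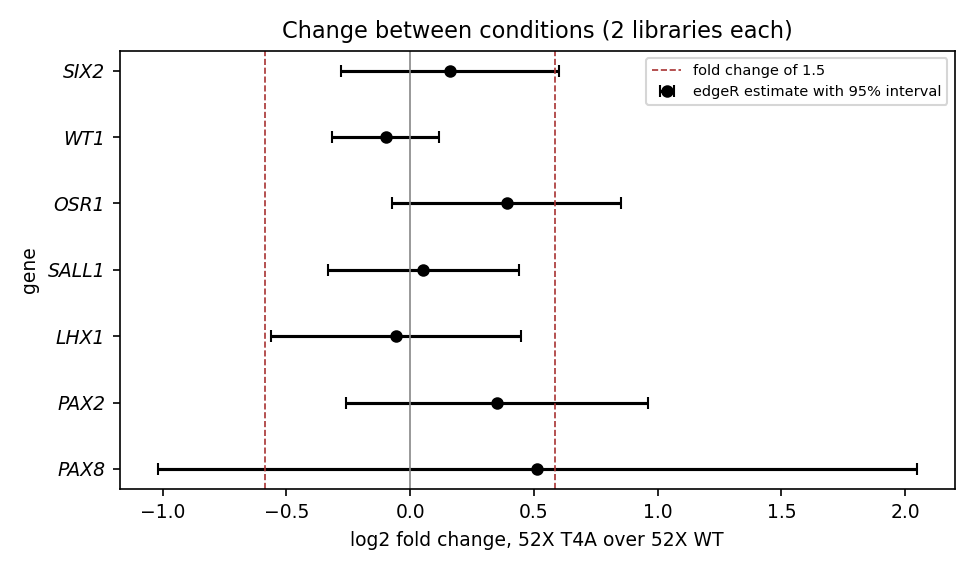
Log2 fold change of 52X T4A over 52X WT for each factor, as the edgeR estimate (points) with its 95% interval (bars), from 2 libraries per condition; dashed lines mark a fold change of 1.5. All 7 intervals hold 0, and those of WT1, SALL1 and LHX1 lie between the dashed lines.

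The plot of fold changes also shows the spread of precision, with the narrowest interval for WT1, which had the most counts, and the widest for PAX8, which had the fewest of the genes tested.

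The 52X T4A libraries were less alike than the 52X WT libraries, with a correlation of log2 CPM of 0.979 against 0.991. This bears on each fold change above. Over the genes tested, the SD of log2 CPM less the 52X WT mean was 0.664 for 52X T4A replicate 1 and 0.431 for replicate 2. Both also hold the difference between conditions. The SD was 0.210 for each 52X WT library, but each is part of that mean, so this value is not a like measure. SIX2 deviated by -0.08 in 52X T4A replicate 1 and by 0.37 in replicate 2. SALL1 deviated by -0.08 and 0.18, and LHX1 by -0.16 and 0.04, so for these genes the 2 libraries lay on opposite sides of the 52X WT mean. OSR1 deviated by 0.28 and 0.48, PAX2 by 0.31 and 0.39, and WT1 by -0.09 and -0.11, on one side in each case. PAX8 deviated by 1.13 and -0.77.

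**Figure D4:**
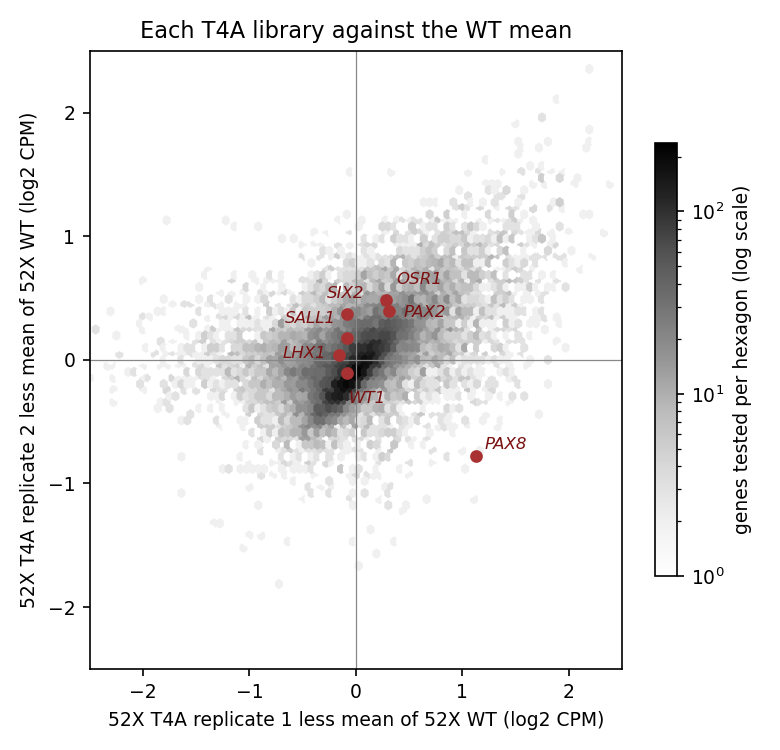
Log2 CPM of each tested gene in 52X T4A replicate 1 (x axis) and in 52X T4A replicate 2 (y axis), each less the mean of the 52X WT libraries, as grey hexagons shaded by the number of genes on a log scale, with the 7 factors in red. WT1, OSR1 and PAX2 lie on the same side of 0 on both axes, and PAX8, at 1.13 and -0.77, lies apart from the densest hexagons.

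The plot of both 52X T4A libraries places 6 of the 7 factors within 0.5 log2 units of the 52X WT mean in both libraries, and PAX8 alone outside. In 52X T4A replicate 1, 29.0% of all genes tested lay beyond 0.5, and in replicate 2 17.9%.

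Another 4 lists of genes were read in the same fit to set the factors among the rest of their pathway. Of 30 other kidney transcription factors, 18 were above the olfactory 95th percentile in all 4 libraries, 23 were tested and 0 were called, while 1 was higher and 2 lower at p under 0.05 before adjustment in edgeR. Over all genes tested, 7.45% were higher and 8.02% lower at that p, beside which the shares here were 4.35% and 8.70%. Their median log2 fold change was -0.13, against -0.001 for all genes, but without 52X T4A replicate 1 the median was 0.12. The number called in this list rose without 52X T4A replicate 2, as it did over all genes tested. FOXC1, a forkhead factor of the mesenchyme, led with 1050, 1471, 636 and 891 counts, a mean level of 6.59 CPM per kb, and a log2 fold change of -0.43 ± 0.17 (SE, adjusted p = 0.300). FOXD1, a factor of the kidney stroma, had 432, 462, 189 and 401 counts and a level of 2.45 CPM per kb, with its low value in 52X T4A replicate 1. SIX4, a relative of SIX2, had a level of 1.89 CPM per kb. EYA1, which works with SIX2, was also above the percentile, and CITED1 and IRX1 were listed at 0 in all 4 libraries. POU3F3 was listed at 0 too, but like SOX2 it has no countable base.

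Of 30 kidney signals and receptors, 24 were above the percentile, 29 were tested and 0 were called, while 5 were higher and 2 lower at p under 0.05 before adjustment in edgeR, which is 17.2% and 6.90% of those tested. Their median log2 fold change was 0.07, but it was -0.041 without 52X T4A replicate 2 and -0.014 without 52X WT replicate 1. Again the number called rose without 52X T4A replicate 2, as it did over all genes tested. GDNF, the signal that nephron progenitors send to the ureteric bud, had 5069, 5707, 5032 and 4999 counts and a level of 5.06 CPM per kb. Its receptor genes RET and GFRA1 were above the percentile too. HES1, a Notch target, had the highest level of this list, 16.4 CPM per kb, from 1797, 2019, 991 and 1673 counts. CTNNB1, which encodes beta-catenin, had a level of 3.64 CPM per kb and SPRY1, an inhibitor of receptor tyrosine kinase signalling, 2.90.

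Of 25 stemness genes, 24 were found, 13 were above the percentile and 17 were tested, with 0 called and 1 higher and 3 lower (5.88% and 17.6%) at p under 0.05 before adjustment in edgeR. As over all genes tested, the number called rose without 52X T4A replicate 2. MYC led with a level of 14.2 CPM per kb, followed by KLF5 at 7.39, ZIC2 at 6.14 and KLF4 at 3.88. POU5F1 and NANOG, the defining genes of pluripotent cells, were not above the percentile in all 4 libraries. KLF5 had 4571, 6559, 7052 and 6613 counts and a log2 fold change of 0.60 ± 0.12 (SE, adjusted p = 0.173).

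Of 29 paralogs of the 8 genes, 20 were above the percentile and 24 were tested, with 0 called and 3 higher and 1 lower (12.5% and 4.17%) at p under 0.05 before adjustment in edgeR. Here too the number called rose without 52X T4A replicate 2, as it did over all genes tested. EGR1, an immediate early gene whose zinc fingers resemble those of WT1, had a level of 72.4 CPM per kb from 12994, 13393, 6890 and 9244 counts, with both 52X T4A values scaled by depth below both 52X WT values (log2 fold change -0.43 ± 0.13, SE, adjusted p = 0.245). OSR2, the paralog of OSR1, had 1.95 CPM per kb, SIX4 1.89 and EGR3 1.60. PAX1, PAX3, PAX6 and PAX9 were above the percentile in all 4 libraries, and PAX4, PAX5 and PAX7, like PAX2 and PAX8, were above it in none.

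**Figure D5:**
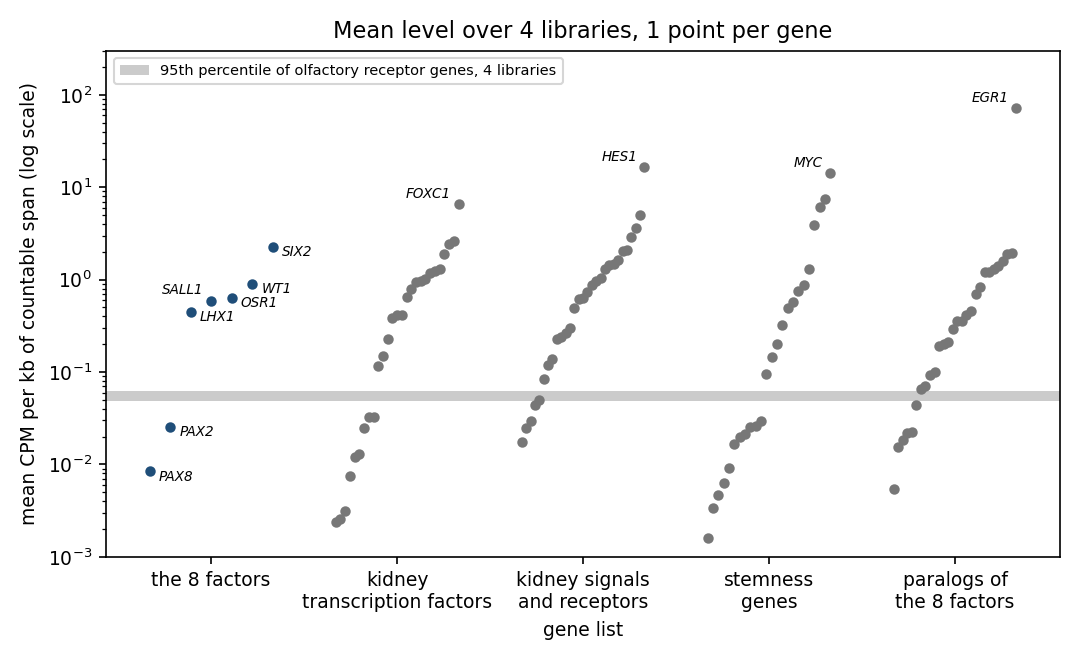
Mean level over the 4 libraries of each gene above 0, in CPM per kb of countable span on a log axis, for the 8 factors and 4 lists of related genes, with the range over libraries of the olfactory 95th percentile (grey band). In each list genes lie on both sides of the band, and SIX2, at 2.24, lies below FOXC1, HES1, MYC and EGR1.

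The plot of the lists shows the same split in each list as among the 8 factors, with levels on both sides of the olfactory band. SIX4 stands in 2 of the lists.

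The label of the cells was read against markers of kidney and other cell types. Above the olfactory percentile in all 4 libraries were 1 of 5 podocyte markers (PODXL), 2 of 6 of the proximal tubule (LRP2 and AQP1), 0 of 4 of the loop of Henle and distal tubule, 2 of 5 of the collecting duct (AQP3 and SCNN1A) and 2 of 5 of epithelium (KRT8 and KRT18, without CDH1 and EPCAM). Of markers outside the kidney epithelium, 4 of 6 of stroma and mesenchyme (FOXD1, MEIS1, COL1A1 and VIM), 3 of 7 of neural cells (NEFL, NES and TUBB3), 0 of 5 of the adrenal cortex, 0 of the 2 endothelial markers found and 1 of 3 of blood (CD14) were above it. Most of the markers of mature kidney segments were thus not above this percentile in all 4 libraries. They were not set against the pooled olfactory level, so their distance from background was not tested. NEFL, a neurofilament gene, had a level of 12.3 CPM per kb, above every one of the 7 measured factors. The summed CPM of the stroma list was 265 to 271 in 52X WT and 248 to 262 in 52X T4A, and that of the neural list 78.7 to 82.5 and 64.7 to 81.7. Their part in the levels of the factors was not tested.

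The libraries held between 33188536 and 45605027 counts. POLR2A, the gene of RPB1, had 377312 and 384353 counts in 52X WT and 251502 and 279478 in 52X T4A (log2 fold change -0.24, adjusted p = 0.659), and reads of the plasmid and of the endogenous gene are not separated, so the count does not check the degron or the mutation.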

How the data were processed

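TT-seq was done on 4 libraries, 2 per condition. The authors deposited raw counts per gene, made with featureCounts; the submitters' processing notes name GRCh38, cutadapt 4.6 and STAR 2.7.11b, and the featureCounts version and options are not given in the sources used here. Multi-mapping reads were left out.

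Counts were tested with edgeR 4.0.16 in R 4.3.3 (TMM, default filter, quasi-likelihood test, Benjamini-Hochberg adjustment over 23321 genes); the SE was derived from the F statistic. Genes were called at an adjusted p under 0.05 and a fold change over 1.5. Between 33188536 and 45605027 counts per library set the precision. Symbols came from GENCODE by stable identifier, for 58742 of 60708 genes. The edgeR test was run on simulated counts with 200 changed genes. These had the same dispersion in every gene and library, and changes only in genes of high count. The check therefore does not measure power or error in these libraries. The members and lists were chosen with earlier results of these data known. Named genes were the members, genes overlapping or diverging within 5000 bp, POLR2A, the 3 genes most like the member of highest level, and up to 4 genes of highest level per list; other genes named were chosen after their values were seen. Some genes that this rule covers are not reported here. Alternatives were DESeq2 1.42.0, other filters and normalizations, a replicate block, each library left out and, chosen after seeing the data, counts halved for read pairs and the pooled olfactory level subtracted.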

Additional observations from a re-analysis of the deposited data

How the results depend on the processing

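None of the factors that a fit gave an adjusted p was called under any alternative run (DESeq2, other normalizations and filters, the replicate block, halved counts and each library left out). DESeq2 gave no adjusted p for PAX2, PAX8, LHX1 and OSR1. The lowest adjusted p over these was 0.142, for PAX8 without 52X T4A replicate 2. Leaving out a library leaves an arm with a lone library, which is assumed to vary like the other group. The log2 fold change over those fits ran from -0.89 to 1.20 for PAX8, -0.18 to 0.051 for LHX1, -0.10 to 0.37 for SIX2, -0.10 to 0.19 for SALL1, 0.13 to 0.56 for PAX2, 0.27 to 0.50 for OSR1 and -0.14 to -0.09 for WT1. The sign turned for PAX8 (-0.89) and LHX1 (0.051) without 52X T4A replicate 1, for SIX2 (-0.10) and SALL1 (-0.10) without 52X T4A replicate 2, and for SALL1 (-0.023) without 52X WT replicate 2. PAX8 was not tested with halved counts or with at least 10 counts asked of every library, where it fell under the filter.

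Against 1 gene called over the whole table, DESeq2 called 96 and the fit with no filter 65, and leaving out a library gave 0 to 2500. Deviations of libraries with the same number correlated at 0.00498. With 2 libraries per condition this does not settle whether the numbers pair them. Blocking on that number, the fit with the replicate block called 433 genes, 1 kidney transcription factor and 1 stemness gene (KLF5) among them. With no filter 1 signal gene, BMP7, was called. Leaving out a library gave 0 to 5 calls and a median of -0.13 to 0.12 for the kidney transcription factors, 0 to 4 and -0.041 to 0.13 for the signals, 0 to 4 and -0.21 to 0.031 for the stemness genes, and 0 to 6 and -0.20 to 0.20 for the paralogs. The highest number of calls in each list came without 52X T4A replicate 2. With the highest olfactory receptor gene as the limit in place of the 95th percentile, 0 of the 7 factors were above it in all 4 libraries. Subtracting the pooled olfactory level lowered the mean level of PAX2 to 0.0181 and of PAX8 to 0.00105 CPM per kb. The causes of these differences were not tested, and low counts limit what can be said of PAX2 and PAX8.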

Other observations

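Across 15328 protein-coding genes tested, those whose log2 CPM over the 4 libraries, centred on its mean, lay nearest to that of SIX2 were SLC29A4, SAP30 and UNC5A, at Euclidean distances of 0.0546, 0.0612 and 0.0628. With 4 libraries such a likeness is a description.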
